A study of Mus musculus with 2 samples.

Results

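The pericyte nuclei of CIC::DUX4-driven mouse sarcomas were examined in single-nucleus RNA-seq of 8 tumors. Nuclei with at least 1000 unique molecular identifiers (UMIs, 1 for each captured RNA molecule) and under 5% mitochondrial UMIs were kept. A nucleus was called mural, meaning of the vessel wall, when the genes Notch3, Pdgfrb, Rgs5, Abcc9, Cspg4, Mcam, Kcnj8 and Myh11 together held at least 20 of every 10000 UMIs and at least 3 of them were detected. A mural nucleus was taken as a pericyte when its UMIs of Abcc9, Kcnj8, Rgs5 and Cspg4 outnumbered those of the smooth muscle genes Myh11, Acta2, Cnn1 and Kcnab1. The nuclei were thus chosen by the measured counts of these genes, and the levels of these genes are descriptions throughout. The rule gave 1346 pericyte nuclei of 60121 nuclei (2.24%) and of 1824 mural nuclei (73.8%). The other 478 mural nuclei are called vascular smooth muscle here, among them 33, 6, 8 and 5 ties in untreated and 8, 9, 5 and 2 in Minnelide tumors 1 to 4.

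All tumors came from dFLEx CDS mice, in which the human fusion gene CIC::DUX4, under the ubiquitous CAG promoter, is switched on only where both Cre and FLPE recombinases act. Per the study's methods the recombinase plasmids were electroporated into the gastrocnemius muscle of young adult mice, so that vessels of the host muscle could enter the sampled tissue. The untreated group (genotype dFLEx CDS +/-) held 4 tumors. The Minnelide group held 4 tumors of mice dosed at 0.42 mg/kg for 21 days with Minnelide, a water-soluble prodrug of triptolide, which binds the XPB subunit of the general transcription factor TFIIH. The labels give neither sex, age at collection nor sequencing run, and tumor numbers are only names. A difference between runs and a difference between treatments cannot be told apart in these samples.

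Pericytes wrap capillary endothelium and share its basement membrane. Endothelial PDGF-B recruits them through the receptor PDGFRβ, and NOTCH3 signaling from the endothelium maintains them. They set capillary tone through an ATP-sensitive potassium channel made of KCNJ8 and ABCC9, and relax when nitric oxide raises cyclic GMP through soluble guanylate cyclase. In tumors the pericyte coat is often loose, which makes this class of interest when vessels are compared between treated and untreated lesions.

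The deposited libraries held 5210 to 12615 nuclei and 18487409 to 73211599 UMIs. Untreated tumor 4 stood apart with a median of 883 UMIs per deposited nucleus, against 2329 to 4031 in the other 7 tumors. Pericyte nuclei had a median of 2959 UMIs, and their median by tumor ran from 1970 in untreated tumor 4 to 3571 in untreated tumor 1. Summed per tumor they gave 239448 to 1565516 UMIs, and values below are counts per 1000000 UMIs (CPM) of these sums unless another unit is named. Of the 1346 nuclei, 0 to 4 per tumor carried a barcode that another library also held, and in no case was the other nucleus a pericyte nucleus. Scrublet marked 0 to 30 pericyte nuclei per tumor as doublets, at most 8.33% of them in a tumor.

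The marker list of pericytes (Abcc9, Kcnj8, Rgs5, Notch3, Pdgfrb), which the rule also used, summed to 2933 to 4276 CPM in the untreated and 2280 to 4209 CPM in the Minnelide pericyte nuclei. In nuclei outside the mural set the same sum was 309.9 to 536 and 433 to 594 CPM. For comparison, other nuclei were put in classes by marker lists, giving endothelial-like, fibroblast-like, macrophage-like, myonucleus-like and tumor-like nuclei. The scoring rule for these classes was set after class counts and marker levels had been seen. Genes that the membership rule did not use give a check of the label against classes outside the mural set. After each nucleus was thinned to 1000 UMIs, Gucy1a1, the alpha subunit of soluble guanylate cyclase, was detected in 8.62% of pericyte nuclei, 0.552% of macrophage-like nuclei and 0.298% of endothelial-like nuclei. Its partner Gucy1b1 was detected in 7.28%, 0.368% and 0.213% of the same classes. Both macrophage-like and endothelial-like nuclei are types that should lack this enzyme or hold little of it, and their median depths of 3105 and 3230 UMIs were close to the 2959 of pericyte nuclei. Without thinning, Gucy1a1 was detected in 22.2% of pericyte and 2.48% of macrophage-like nuclei, and Gucy1b1 in 18.7% and 1.01%. In vascular smooth muscle nuclei Gucy1a1 and Gucy1b1 averaged 182 and 93.7 CPM, against 116 and 100.2 CPM in pericyte nuclei. These genes thus check the mural label and not the split of pericytes from smooth muscle.

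Other pericyte genes outside the rule were likewise detected more often in pericyte than in macrophage-like nuclei. The cyclic GMP phosphodiesterase Pde5a was seen in 12% against 1.56% and the Notch target Heyl in 4.23% against 0.46% of thinned nuclei. Both had higher means in vascular smooth muscle (187 and 75.8 CPM) than in pericyte nuclei (141 and 52.3 CPM). The transcription factor Ebf1 was less selective, with 64.4% in pericyte, 52.3% in endothelial-like and 25.9% in macrophage-like nuclei. Several textbook markers of brain pericytes were near the detection limit here. Higd1b was seen in 0.966%, Cox4i2 in 1.11%, Vtn in 0.817% and Foxs1 in 0.371% of thinned pericyte nuclei, and Rgs4, also common in brain pericytes, reached 18.7 to 91.7 CPM in the summed nuclei.

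Transcripts of other cell types were present in the pericyte nuclei, and the extent varied by tumor. The list of tumor genes (the CIC::DUX4 targets Etv1, Etv4, Etv5, Shc3, Shc4, Vgf, Muc5ac, Dusp4 and Spred2) summed to 4030 to 10834 CPM in the untreated and 9885 to 16362 CPM in the Minnelide pericyte nuclei. Etv1 alone was detected in 80.5% of thinned pericyte nuclei and in 73.2% of macrophage-like nuclei, so that most nuclei of both classes held it. Myonuclear genes summed to 17486 CPM in untreated tumor 1 and 14809 CPM in Minnelide tumor 2, against 528 to 3458 CPM in the other 6 tumors. Endothelial genes summed to 5883 CPM in Minnelide tumor 4 and to 1440.5 to 2804 CPM elsewhere. In nuclei outside the mural set they summed to 3390 CPM in untreated tumor 1 and to 700 to 1526 CPM elsewhere. The endothelial list was thus higher in pericyte nuclei than outside the mural set in every tumor but untreated tumor 1. Macrophage genes summed to 62.3 to 447 CPM, T and NK cell genes to 1.59 to 66.6 CPM and adipocyte genes to 0 to 13.1 CPM, and every marker of these lists had at least 1 UMI in some pericyte nucleus. In single nuclei, at least 1 of the lists of tumor, fibroblast, myonuclear, endothelial and macrophage genes held more UMIs than the 8 mural genes in 1201 of 1346 (89.2%). The tumor list did so in 1051 nuclei, the fibroblast list in 779, the myonuclear list in 388, the endothelial list in 222 and the macrophage list in 7. Whether free RNA, joined nuclei or mixed expression gave these transcripts was not tested.

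**Figure D1:**
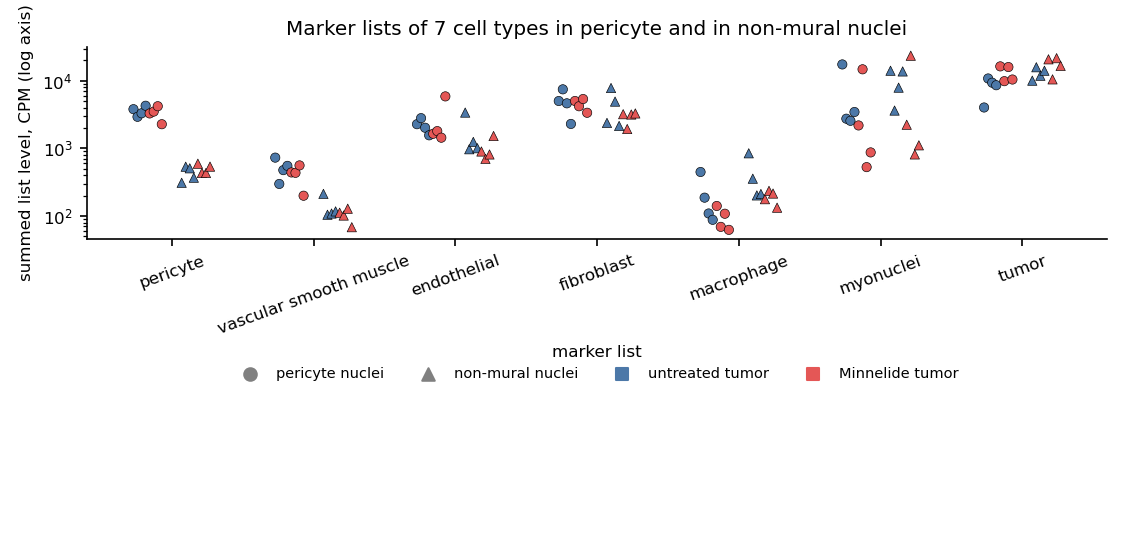
Summed CPM of 7 marker lists (log axis) in the pericyte nuclei (circles) and in nuclei outside the mural set (triangles) of each tumor, blue for untreated and red for Minnelide. The pericyte list lies at 2280 to 4276 CPM in pericyte nuclei and at 309.9 to 594 CPM in the others. The membership rule used this list and so sets that separation. The ranges of all the other lists overlap between the 2 kinds of nuclei.

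Members differed in how they met the rule. The median P, the UMIs of the 8 mural genes per 10000, was 28.7 and the highest 183. In 533 nuclei only 3 of the 8 genes were detected, and in 233 at least 6 were. No smooth muscle UMI was present in 771 nuclei, and 165 passed the split from smooth muscle by a margin of 1 UMI. Around the threshold, 16, 27, 32 and 11 nuclei in untreated and 83, 19, 29 and 19 nuclei in Minnelide tumors 1 to 4 had a P of 20 to 22, whereas 26, 29, 23 and 6, and 119, 23, 46 and 40, had at least 3 of the genes and a P of 18 to 20. No gap in P lay at the threshold. Rgs5, which encodes a GTPase-activating protein that dampens vasoconstrictor signals, was the gene most often detected, in 1196 nuclei (88.9%, without thinning, like the shares that follow). Abcc9 was detected in 903 (67.1%), the proteoglycan gene Cspg4 (NG2) in 509 (37.8%) and Kcnj8 in 203 (15.1%). All 4 genes together were seen in 63 nuclei (4.68%). Rgs5 was the sole one of the 4 in 241 nuclei (17.9%), a share that was lowest in Minnelide tumor 2 (4.03%) and highest in Minnelide tumor 1.

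Those 2 tumors also differed in a second measure. A set of 9 pericyte genes outside the rule (among them Ebf1, Gucy1a1, Gucy1b1, Pde5a, Heyl, Gjc1, Higd1b and Ndufa4l2), chosen after the data had been seen, reached at least 10 of 10000 UMIs in 893 pericyte nuclei (66.3%). The share was 75.8%, 67.2%, 70.3% and 78.2% in untreated tumors 1 to 4 and 55.0%, 80.6%, 64.0% and 53.7% in Minnelide tumors 1 to 4. Minnelide tumors 1, 3 and 4 were below and Minnelide tumor 2 was above every untreated tumor. The tumor gene list had a median of 93.1 per 10000 UMIs in nuclei that reached this level and 187 in the 453 that did not.

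Abcc9 and Kcnj8, the subunits of the pericyte potassium channel, lie next to each other on chromosome 6 (Abcc9 chr6:142533588-142648571 and Kcnj8 chr6:142510563-142517830, GRCm39, both on the minus strand), 15757 bases apart. Abcc9 stood at 638, 635, 711 and 1123 CPM in untreated tumors 1 to 4 and 448, 1317, 763 and 832 CPM in Minnelide tumors 1 to 4. Kcnj8 stood at 91.7, 64.4, 23.6 and 62.6 CPM in untreated tumors 1 to 4 and 25.6, 108, 42.8 and 156 CPM in Minnelide tumors 1 to 4. Minnelide tumor 1 was the lowest or next to lowest for both genes, Minnelide tumor 2 was high for both, and the groups overlapped. Outside pericyte nuclei the highest class mean was 215 CPM for Abcc9, in myonucleus-like nuclei, and 14.3 CPM for Kcnj8, in endothelial-like nuclei. Skeletal muscle fibers are known to use ABCC9 in their own ATP-sensitive potassium channel.

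Rgs5 (chr1:169483036-169524887, plus strand) stood at 1278, 1071, 1273 and 1533 CPM in untreated tumors 1 to 4 and 1704, 1059, 1928 and 617 CPM in Minnelide tumors 1 to 4, with the lowest and the highest value both in Minnelide tumors. Vascular smooth muscle had the next highest class mean, 657 CPM, followed by tumor-like nuclei at 265 CPM, and endothelial-like nuclei had 137 CPM. The receptor genes Pdgfrb and Notch3 did not separate the mural classes. Pdgfrb averaged 706 CPM in pericyte and 634 CPM in vascular smooth muscle nuclei, and Notch3 averaged 557 and 977 CPM. Pdgfrb was measured at 970.2, 738, 653 and 743 CPM (untreated) and 611, 627, 876 and 429.8 CPM (Minnelide). Notch3 was measured at 827, 424, 647 and 814 CPM (untreated) and 503, 396, 599.7 and 246 CPM (Minnelide), with Minnelide tumor 4 the lowest for both receptors. Cspg4 ran from 71.6 to 229.7 CPM and the adhesion gene Mcam from 135 to 688 CPM over the 8 tumors. The smooth muscle genes used for the split were low by construction, with ranges of 42.8 to 159 CPM for Myh11, 43.6 to 232 CPM for Acta2, 99.7 to 301 CPM for Kcnab1 and 0 to 2.22 CPM for Cnn1. In vascular smooth muscle nuclei their means were 1213, 1218, 1899 and 26 CPM.

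**Figure D2:**
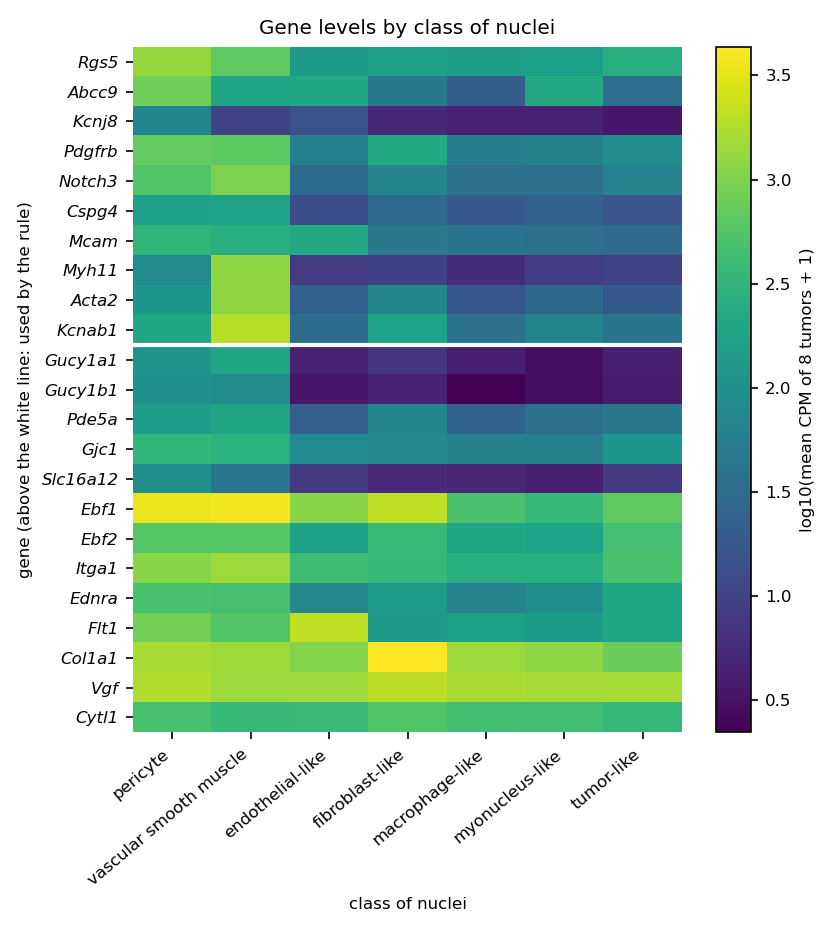
Mean CPM of 8 tumors, as log10(CPM + 1), for 23 genes (rows) in 7 classes of nuclei (columns). Rows above the white line were used by the membership rule, which sets their order between pericyte and other nuclei. Below it, Gucy1a1 and Gucy1b1 are at 116 and 100.2 CPM in pericyte nuclei and at most 5.84 and 3.66 CPM in the 5 classes outside the mural set, whereas Vgf and Cytl1 are at similar levels in every class.

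The guanylate cyclase genes are shown with their upstream sequence because both were near 0 outside the mural classes, a choice made after their values were seen. Gucy1a1 stood at 184, 138, 94.3 and 121 CPM in untreated tumors 1 to 4 and 87.5, 99, 141 and 62.3 CPM in Minnelide tumors 1 to 4. Gucy1b1 stood at 132, 66.7, 92.5 and 188 CPM in untreated tumors 1 to 4 and 55.6, 141, 92 and 34.3 CPM in Minnelide tumors 1 to 4. The groups overlapped for both. In vascular smooth muscle nuclei their means were 182 and 93.7 CPM. Like the channel pair, the 2 genes are neighbors, 17710 bases apart on the minus strand of chromosome 3. The 250 bases before the annotated start of the canonical transcript (GENCODE M39 on GRCm39, 5′ to 3′ on the gene's strand) are given for these genes and, for comparison, for the rule genes Kcnj8 and Rgs5. They span chr3:82053217-82053466 (minus), chr3:81982007-81982256 (minus), chr6:142517831-142518080 (minus) and chr1:169482786-169483035 (plus). Of these windows, 16 bases of Gucy1b1 and none of the others lie in an annotated exon. Capitals mark TGGGAA, the core motif of RBPJ, the DNA-binding partner of Notch receptors.
Gucy1a1: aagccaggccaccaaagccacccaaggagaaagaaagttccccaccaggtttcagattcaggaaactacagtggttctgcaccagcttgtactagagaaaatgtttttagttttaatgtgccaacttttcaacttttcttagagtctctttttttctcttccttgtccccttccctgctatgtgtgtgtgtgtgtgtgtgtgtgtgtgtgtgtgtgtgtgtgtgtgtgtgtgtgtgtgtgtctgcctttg
Gucy1b1: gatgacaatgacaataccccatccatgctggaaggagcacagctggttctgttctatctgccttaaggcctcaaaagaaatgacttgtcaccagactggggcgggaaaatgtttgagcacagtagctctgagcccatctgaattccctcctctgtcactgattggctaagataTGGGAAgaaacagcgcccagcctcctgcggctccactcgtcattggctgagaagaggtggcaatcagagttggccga
Kcnj8: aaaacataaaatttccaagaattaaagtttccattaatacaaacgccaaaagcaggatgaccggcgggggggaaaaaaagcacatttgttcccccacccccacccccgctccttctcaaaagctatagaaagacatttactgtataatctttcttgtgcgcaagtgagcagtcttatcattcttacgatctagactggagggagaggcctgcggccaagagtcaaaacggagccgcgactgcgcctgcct
Rgs5: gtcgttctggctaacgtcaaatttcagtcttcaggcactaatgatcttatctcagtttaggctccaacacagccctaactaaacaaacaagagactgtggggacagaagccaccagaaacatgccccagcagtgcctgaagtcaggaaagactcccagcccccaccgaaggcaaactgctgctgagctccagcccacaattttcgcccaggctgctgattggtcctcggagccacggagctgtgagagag
TGGGAA, read on both strands, occurred in Gucy1b1 alone of these 4, 77 bases before the start. Abcc9, the partner of Kcnj8, also held it, 123 bases before the start, and its window is not printed because 150 of its bases lie in exons of other transcripts. TGGGAA is a common string, present in 22.6% of the 19030 promoter windows of this length and in 7 of the 23 pericyte genes outside the rule that had a window. The EBF motif, TCCC and GGGA with any 2 bases between them, was in 0.977% of all windows, the CArG box of serum response factor in 1.29%, and neither was in any of the 23. A match is a string of letters in the window and shows no binding.

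Over the full list of 24 pericyte genes outside the rule, 23 had a feature and 16 averaged at least 50 CPM in pericyte nuclei. The mean was highest in pericyte nuclei for 6 of these 16 (among them Gjc1, Nr2f2, Gucy1b1, Steap4 and Rgs4) and highest in vascular smooth muscle for 7 (Ebf1, Itga1, Ebf2, Ano1, Pde5a, Gucy1a1 and Heyl). Of all 4429 genes at that level, 301 (6.8%) had their highest class mean in pericyte nuclei. Ebf1, the most abundant of the list, stood at 4043, 2786, 4067 and 5788 CPM in untreated tumors 1 to 4 and 2821, 3305, 3674 and 1598 CPM in Minnelide tumors 1 to 4. Untreated tumor 4 was highest and Minnelide tumor 4 lowest for Ebf1, and the same 2 tumors were the extremes for Ebf2 (137 to 961 CPM). Requiring a gene outside the rule to be higher in pericyte nuclei than in each of 6 other classes in every tumor left 3 genes, and with the rule genes 5 of 4429 (0.113%) met it. The monocarboxylate transporter gene Slc16a12 was the clearest, at 57.8, 73.3, 90.7 and 213 CPM in untreated tumors 1 to 4 and 88.1, 87, 130.1 and 34.3 CPM in Minnelide tumors 1 to 4, with a vascular smooth muscle mean of 41.8 CPM and at most 7.14 CPM as a mean in the other 5 classes. Slc12a2, the sodium, potassium and chloride cotransporter, averaged 267 CPM in pericyte and 165 CPM in endothelial-like nuclei. Gjc1, which encodes the gap junction protein connexin 45, averaged 337 CPM in pericyte and 283 CPM in vascular smooth muscle nuclei.

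The number of pericyte nuclei was compared between groups because loss of the pericyte coat is a common question in treated tumors. Pericyte nuclei made up 2.23%, 2.26%, 2.42% and 1.95% of the nuclei of untreated tumors 1 to 4. They made up 3.14%, 1.64%, 1.81% and 1.96% in Minnelide tumors 1 to 4. Minnelide tumor 1 was above and Minnelide tumors 2 and 3 were below every untreated tumor. The means were 2.21% ± 0.196 and 2.14% ± 0.682 (SD, n = 4 tumors each, exact two-sided permutation test, p = 0.943, adjusted over the 3 measures of abundance 0.943). Of mural nuclei, pericyte nuclei were 49.6%, 81.0%, 71.8% and 82.1% in untreated and 87.6%, 70.1%, 82.4% and 90.5% in Minnelide tumors 1 to 4. Untreated tumor 1, with 214 vascular smooth muscle nuclei, was far below the other 7 tumors. The means of 71.1% ± 15.05 and 82.6% ± 9.02 differed by 11.5 percentage points (exact permutation test, p = 0.257, adjusted 0.771). Without untreated tumor 1 the difference was 4.34 points. It was -0.182 points when members were held to the 9 genes outside the rule.

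The number per endothelial-like nucleus was 0.290, 0.260, 0.242 and 0.249 in untreated and 0.420, 0.224, 0.294 and 0.221 in Minnelide tumors 1 to 4. The study describes tumor cells with endothelial-like features, and whether the endothelial-like nuclei include such cells was not tested. In tumor-like nuclei the endothelial list summed to 3448 CPM in untreated tumor 1 and to 306 to 684 CPM elsewhere. The mean log2 ratio was 0.11 higher in the Minnelide tumors (exact permutation test, p = 0.743, adjusted 0.943), and the groups overlapped. With the minimum of P set to 10 the difference in log2 ratio was 0.88, and with 40 it was -0.47 (exact permutation test, p = 0.0857 and 0.4). In the main analysis the groups overlapped in every measure of abundance, and the smallest adjusted p was 0.771 (exact permutation test). The difference of 11.5 points in the share of mural nuclei exceeded the Minnelide SD (9.02) and not the untreated SD (15.05). With 70 arrangements the smallest p such a test can give is 0.0286. A count of nuclei reflects recovery in nuclear isolation as well as cells in tissue.

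**Figure D3:**
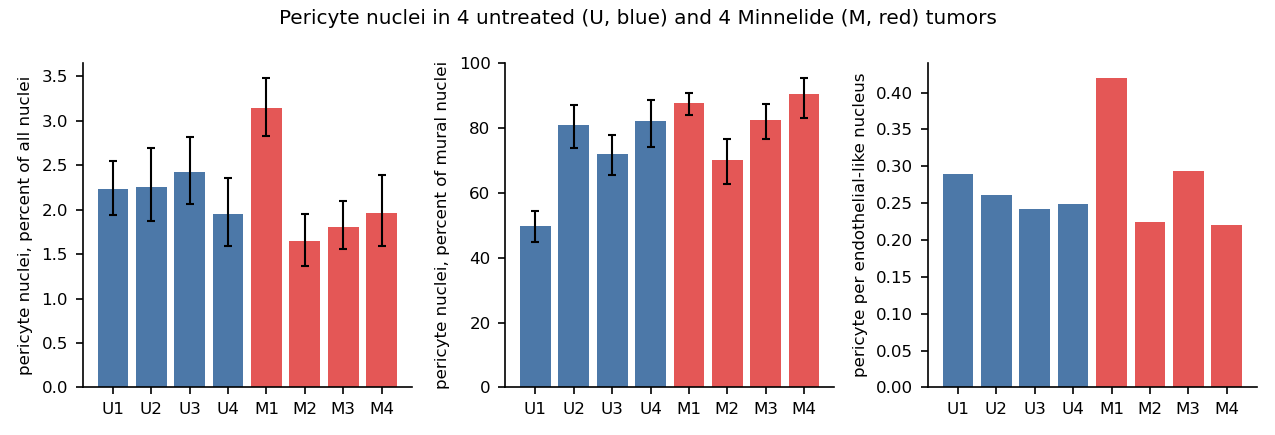
Pericyte nuclei as percent of all nuclei (left), as percent of mural nuclei (middle) and per endothelial-like nucleus (right), 1 bar per tumor, with exact 95% binomial intervals that cover counting error only. Minnelide tumor 1 has the tallest bar on the left and right, and untreated tumor 1 the shortest in the middle.

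Expression in pericyte nuclei was then compared between Minnelide and untreated tumors on UMI counts summed per tumor. Of 7491 genes tested, none passed an adjusted p of 0.05 (edgeR quasi-likelihood test with Benjamini-Hochberg adjustment, 0.0% called). The smallest adjusted p was 0.937. At an unadjusted p under 0.05 there were 369 genes, 149 higher (1.99%) and 220 lower (2.94%) in Minnelide tumors. In 97 genes (1.29%) all 4 Minnelide tumors were above and in 155 (2.07%) all 4 were below the 4 untreated tumors. DESeq2 called 3 genes (0.04%) and had 313 at an unadjusted p under 0.05. The median SE of a log2 fold change was 0.31. On simulated counts the edgeR test recovered 2 of 200 genes changed 2-fold and 145 of 200 changed 4-fold. The absence of calls therefore cannot show that 2-fold changes were absent. The genes below are named for the smallest p-values and were not called by edgeR. The tumor list was at 9885 to 16362 CPM in Minnelide and 4030 to 10834 CPM in untreated pericyte nuclei, and its part in each difference was not tested.

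Astn2, which encodes the neuronal membrane protein astrotactin 2, had the smallest p among genes lower with Minnelide. It stood at 107, 164, 65.3 and 372 CPM in untreated tumors 1 to 4 and 35.1, 24, 15.9 and 18.7 CPM in Minnelide tumors 1 to 4. All 4 Minnelide values were below all 4 untreated values, with a log2 fold change of -2.78 (SE 0.54, edgeR adjusted p = 0.937). Its class mean was 100.3 CPM in pericyte, 121 CPM in vascular smooth muscle, 49.8 CPM in myonucleus-like and 40.8 CPM in fibroblast-like nuclei. Vascular smooth muscle nuclei showed the same order of the groups, at 114 to 230.3 CPM in untreated and 0 to 109 CPM in Minnelide tumors. Endothelial-like nuclei had 2.11 to 10.8 CPM. Csmd1, a large gene for a complement-regulating membrane protein, stood at 1811, 531, 499 and 464 CPM in untreated tumors 1 to 4 and 74.1, 225, 47.6 and 40.5 CPM in Minnelide tumors 1 to 4. The groups did not overlap (log2 fold change -3.10, SE 0.67, edgeR adjusted p = 0.937), and untreated tumor 1 was far above the rest. Fibroblast-like nuclei held the most Csmd1, with 2062 to 2343 CPM in untreated and 583 to 1596 CPM in Minnelide tumors. The neural gene Brinp3 (log2 fold change -1.88) was also highest in fibroblast-like nuclei, at a mean of 2729.7 CPM against 175 CPM in pericyte nuclei.

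Ankrd6, known for a role in Wnt signaling, and Lmo4, a LIM-only transcriptional cofactor, differed by -1.64 (SE 0.36) and -1.52 (SE 0.33) on the log2 scale. Ankrd6 was at 69.8, 60, 50.8 and 125 CPM (untreated) and 19.2, 27, 31.7 and 15.6 CPM (Minnelide), without overlap of the groups. It was highest in the mural classes, with means of 49.9 CPM in pericyte and 39.8 CPM in vascular smooth muscle nuclei. Neither gene passed the adjusted threshold.

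Genes higher with Minnelide were led by Ptchd4, a Patched-family gene, at 22.9, 42.2, 74.3 and 79.3 CPM in untreated tumors 1 to 4 and 268, 306, 173 and 202 CPM in Minnelide tumors 1 to 4. The groups did not overlap (log2 fold change 2.19, SE 0.38, edgeR adjusted p = 0.937). The level was not highest in pericyte nuclei. Tumor-like nuclei held 63.7 to 294 CPM in untreated and 377 to 638 CPM in Minnelide tumors, and endothelial-like nuclei 19.5 to 106 and 175 to 285 CPM. Levels close to those of other classes were also seen for Cytl1, which encodes a small secreted protein, Penk, the precursor of enkephalins, Vgf, a neuropeptide precursor and CIC::DUX4 target, and Rcn3, a chaperone of the endoplasmic reticulum. Cytl1 stood at 45.8, 258, 172 and 91.9 CPM (untreated) and 1005, 282, 1653 and 333 CPM (Minnelide) in pericyte nuclei, and tumor-like nuclei of the same tumors ranged from 53.9 to 239.5 CPM and 174 to 1141 CPM. Their log2 fold changes in pericyte nuclei were 2.55 for Cytl1, 1.77 for Penk, 1.55 for Vgf and 1.28 for Rcn3. Vgf averaged 1778 CPM in pericyte, 1639 CPM in macrophage-like and 1567 CPM in tumor-like nuclei, so that no class stood out.

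**Figure D4:**
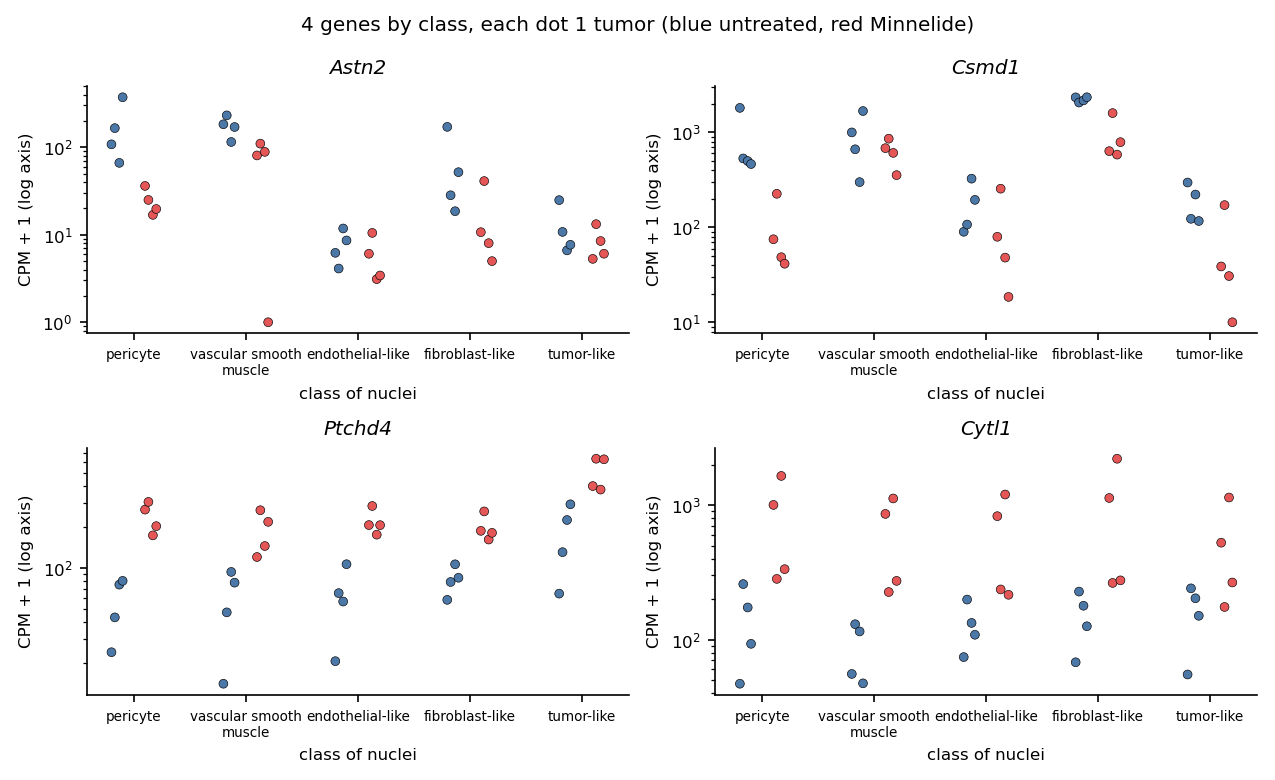
CPM + 1 (log axes) of Astn2, Csmd1, Ptchd4 and Cytl1 in 5 classes of nuclei, 1 dot per tumor, blue untreated and red Minnelide. Astn2 is separated by treatment in pericyte nuclei and is at most 10.8 CPM in endothelial-like nuclei, whereas Ptchd4 is highest in tumor-like nuclei (mean 345 CPM) and Cytl1 averages 344 CPM there and 480.1 CPM in pericyte nuclei.

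Gene lists of pericyte biology were then read by count and median, beside a median log2 fold change of -0.02 over all genes tested. The lists were chosen with earlier results of these data known, and no list member passed the adjusted threshold. Of all 7491 genes tested, 1.99% were higher and 2.94% lower in Minnelide tumors at an unadjusted p under 0.05 (edgeR). The groups did not overlap in 1.29% (higher) and 2.07% (lower) of all genes. The list counts below stand beside these shares and were not tested against them. Of the 18 tested pericyte genes outside the rule none had an unadjusted p under 0.05, 14 were below 0, and the median was -0.31. Nr2f2, the venous and mural transcription factor COUP-TFII, was at 253 ± 92.3 CPM in untreated and 161 ± 62.9 CPM in Minnelide tumors (SD, n = 4) and Steap4, a metalloreductase gene, at 85.6 ± 71.8 CPM in untreated and 42.6 ± 43.6 CPM in Minnelide tumors. Both ranges overlapped. Among 15 mural transcription factors, 2 had an unadjusted p under 0.05 and are named after their values were seen. Tbx2 was at 70.9, 33.3, 52.6 and 45.9 CPM (untreated) and 28.1, 30, 27 and 28 CPM (Minnelide), without overlap, and Prrx1 at 579.9 ± 209 CPM in untreated and 334 ± 126 CPM in Minnelide tumors. The median of this list was -0.28. Ebf1 was at 4171 ± 1233 CPM in untreated and 2849.6 ± 905 CPM in Minnelide tumors, a log2 fold change of -0.53 (SE 0.35).

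Genes of the signals that pericytes receive came next. Of 14 PDGF genes none had an unadjusted p under 0.05 (median -0.15), and Pdgfd, a ligand of PDGFRβ, was at 146 ± 45.9 CPM in untreated and 114 ± 36.3 CPM in Minnelide tumors. Of 14 Notch genes 1 did, the coactivator Maml1, at 43.7, 35.6, 32.6 and 62.6 CPM (untreated) and 25.6, 24, 28.6 and 15.6 CPM (Minnelide), without overlap and named after its values were seen, and the list had a median of -0.01. Rbpj was at 201 ± 54.4 CPM in untreated and 238 ± 29.9 CPM in Minnelide tumors and the ligand gene Jag1 at 159.6 ± 38.4 CPM in untreated and 144 ± 95.7 CPM in Minnelide tumors. The 28 TGF-beta and BMP genes had a median of -0.04 and none at that level. Tgfbr1, a receptor for TGF-beta, was among the steadiest genes at 267, 276, 274 and 292 CPM (untreated) and 314, 306, 284 and 280.3 CPM (Minnelide). The log2 difference for Tgfbr1 was 0.12 (SE 0.14), and that of Smad4, the shared mediator of the pathway, was -0.05 (SE 0.14). The 12 angiopoietin and VEGF genes had a median of 0.33. Within them Flt1 and Kdr, receptors of endothelium, were highest in Minnelide tumor 4 (1968 and 399 CPM). That tumor had the highest endothelial list in its pericyte nuclei, and both genes are themselves members of that list. Angpt1, the TIE2 ligand that pericytes are known to make, was at 292, 60, 78 and 83.5 CPM (untreated) and 83, 66, 99.9 and 37.4 CPM (Minnelide), highest in untreated tumor 1. Its class mean was 100 CPM in pericyte and 304 CPM in fibroblast-like nuclei. Another class had a higher mean for all 12 angiopoietin and VEGF genes and all 28 TGF-beta and BMP genes. The same held for 13 of the 14 Notch genes and 10 of the 14 PDGF genes.

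The third group of lists covered vessel tone. The 13 ion channel genes (median -0.08), the 18 genes of cyclic GMP and cyclic AMP relaxation (median -0.22) and the 19 contractile genes (median -0.24, 17 below 0) had no member at an unadjusted p under 0.05. The cyclic GMP-dependent kinase gene Prkg1 was at 3252 ± 1016 CPM in untreated and 2922 ± 1173 CPM in Minnelide tumors and the actin-binding Cald1 at 1304 ± 211 CPM in untreated and 1122 ± 411 CPM in Minnelide tumors. Of 11 vasoactive receptor and RGS genes, S1pr3, a sphingosine-1-phosphate receptor, was the only one with an unadjusted p under 0.05, named after its values were seen, at 56.8, 62.2, 81.6 and 142 CPM (untreated) and 37.7, 27, 69.8 and 15.6 CPM (Minnelide), with overlap (log2 fold change -1.06, SE 0.44). The endothelin receptor gene Ednra was at 553 ± 231 CPM in untreated and 426 ± 269 CPM in Minnelide tumors, and Ednrb at 104 ± 67.8 CPM in untreated and 204 ± 173 CPM in Minnelide tumors.

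Matrix genes were read as interstitial and basement membrane lists. The 24 interstitial matrix genes had a median of -0.15 and none with an unadjusted p under 0.05, with Col1a1 at 1615 ± 1164 CPM in untreated and 1627 ± 259 CPM in Minnelide tumors. The 19 basement membrane genes had a median of 0.30, and 3 were higher at an unadjusted p under 0.05, named after their values were seen. Col4a6, a type IV collagen chain, was at 58.9, 251, 201 and 134 CPM (untreated) and 314, 297, 293 and 545 CPM (Minnelide), without overlap. Its neighbor on the X chromosome, Col4a5, was at 132, 260.0, 210.4 and 125 CPM (untreated) and 314, 216, 325 and 424 CPM (Minnelide), and Lama1 ranged over 4.18 to 41.2 CPM. All 3 were highest in tumor-like nuclei, at means of 604, 520.3 and 45.1 CPM. The tumor list ran from 4030 to 10834 CPM in untreated and 9885 to 16362 CPM in Minnelide pericyte nuclei, with overlap. Its part in the differences of these genes was not tested. The chains of the common vascular network, Col4a1 and Col4a2, differed by 0.16 (SE 0.38) and 0.17 (SE 0.35). The 17 genes of contacts between pericytes and endothelium had a median of 0.03, with S1pr3 again the only one at an unadjusted p under 0.05.

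The lists with medians farthest from that of all genes were interferon response and cell cycle. All 15 tested interferon response genes were below 0 in Minnelide tumors (median -0.61), whereas 47.7% of all tested genes were above 0. Of these 4 had an unadjusted p under 0.05, none of them called and all named after their values were seen. The interferon-inducible GTPase gene Iigp1 was at 58.9, 53.3, 52.6 and 33.4 CPM (untreated) and 10.2, 12, 22.2 and 37.4 CPM (Minnelide), Parp14 at 47 ± 12 CPM in untreated and 26.6 ± 4.60 CPM in Minnelide tumors, Parp9 at 38.3 ± 10.6 CPM in untreated and 19.4 ± 7.83 CPM in Minnelide tumors and Irf2 at 246, 227, 239 and 196 CPM (untreated) and 184, 179.9, 181 and 162 CPM (Minnelide). Irf2 alone of the 4 had no overlap. The antigen presentation genes H2-K1, B2m and H2-D1 were highest in untreated tumor 1, at 309, 258 and 296 CPM, against 30 to 137 CPM for any of the 3 in the other 7 tumors. Untreated tumor 1 also had the highest macrophage list in its pericyte nuclei (447 CPM), and each of the 15 interferon genes had a higher mean in some other class, macrophage-like nuclei among them for H2-K1, B2m and H2-D1. The part of RNA from other classes in these levels was not tested. Of 9 pericyte chemokine and cytokine genes 8 were below 0 (median -0.46). The macrophage growth factor gene Csf1, named after its values were seen, was at 92.8, 42.2, 43.5 and 29.2 CPM (untreated) and 22.4, 39, 19 and 12.5 CPM (Minnelide), with overlap, and Il34, which encodes another ligand of the same receptor, at 121 ± 61.5 CPM in untreated and 55.3 ± 44.1 CPM in Minnelide tumors.

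Of 29 cell cycle genes 26 were above 0, with a median of 0.52. Cenpf, Bub1 and Pcna, named after their values were seen, had an unadjusted p under 0.05, and none was called. Mki67 was at 30.6, 111, 152 and 83.5 CPM (untreated) and 178, 72, 225 and 162 CPM (Minnelide) and Top2a at 42.6, 207, 232 and 200.5 CPM (untreated) and 299.6, 168, 301 and 212 CPM (Minnelide). Untreated tumor 1 was lowest for both, and without it the ranges of Mki67 in the groups still overlapped. Thinned to 1000 UMIs, Mki67 was detected in 13.1% of pericyte nuclei and in 10.9% of endothelial-like and 7.54% of macrophage-like nuclei. The 6 most abundant genes of the list (Ezh2, Pola1, Top2a, Diaph3, Atad2 and Mki67) and the 3 above were highest in tumor-like nuclei among the other classes, as were 26 of the 29, and cycling of the pericyte nuclei was not tested apart from tumor RNA.

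The remaining lists were close to the median of all genes or small. The 20 hypoxia and glycolysis genes had a median of 0.09, with the collagen prolyl hydroxylase gene P4ha2 at 46.7 ± 10 CPM in untreated and 69.7 ± 6.21 CPM in Minnelide tumors, without overlap and named after its values were seen. The 16 immediate early genes had a median of -0.15 and none with an unadjusted p under 0.05. Of the 9 tested genes of RNA polymerase II and TFIIH, the complex that triptolide binds, none did (median -0.06). Polr2a was at 142 ± 56.6 CPM in untreated and 125 ± 19.4 CPM in Minnelide tumors and Cdk7, the kinase of TFIIH, at 97 ± 22.4 CPM in untreated and 109 ± 16.5 CPM in Minnelide tumors. The 13 p53 targets had a median of -0.37, with 1 lower at an unadjusted p under 0.05, Sesn1, at 98.9 ± 47.1 CPM in untreated and 52.9 ± 13.1 CPM in Minnelide tumors, which was most abundant in untreated tumor 1 and in myonucleus-like nuclei.

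**Figure D5:**
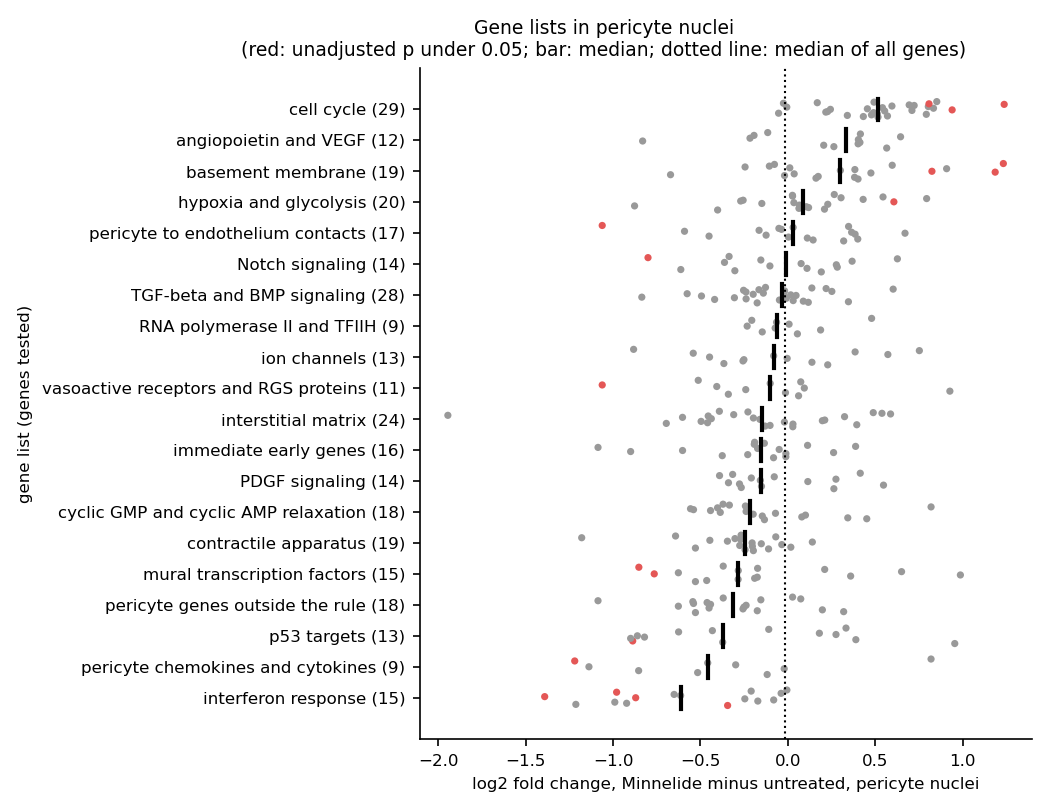
Log2 fold change (Minnelide minus untreated, pericyte nuclei) of each tested gene in 20 lists, with the number of genes tested in brackets. Bars are list medians, red dots genes with an unadjusted p under 0.05 and the dotted line the median of all 7491 genes (-0.02). Interferon response lies lowest (-0.61) and cell cycle highest (0.52).

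Whether the Minnelide difference was particular to pericyte nuclei was tested against the endothelial-like nuclei of the same tumors. No gene of 10729 passed (edgeR quasi-likelihood test of the interaction with tumor as a block, 0.0%), and 459 (4.28%) had an unadjusted p under 0.05. On simulated counts this test recovered 41 of 200 genes changed 2-fold and 151 of 200 changed 4-fold. The smallest p belonged to Notch3, a rule gene whose levels are a description here, at 246 to 827 CPM in pericyte nuclei. Endothelial-like nuclei held 21.2 to 29.5 CPM of Notch3 in untreated and 30.3 to 42.1 CPM in Minnelide tumors. Against vascular smooth muscle no gene of 6806 passed (0.0%), and 256 (3.76%) had an unadjusted p under 0.05. The nearest were the transcriptional coactivator Eya2 (difference -3.93, SE 0.72, edgeR adjusted p = 0.100) and the synaptic scaffold gene Dlg2 (difference 3.07, SE 0.61, edgeR adjusted p = 0.161). Eya2 ran from 0 to 64.4 CPM in pericyte nuclei. In vascular smooth muscle nuclei it was highest in Minnelide tumors 2 and 3 (61.3 and 113 CPM) and 0 in untreated tumor 4 and Minnelide tumor 4. Those 2 tumors had 22 and 10 vascular smooth muscle nuclei. Dlg2 stood at 765 CPM in the pericyte nuclei of Minnelide tumor 2 and at 6.23 to 32.6 CPM in the other 7.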

How the data were processed

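Raw UMI counts of genes by nuclei, produced by the authors with Cell Ranger, were deposited as 4 matrices for each of 2 samples. The file headers name version 9.0.1 and the submitters' processing notes 7.0.1, with bcl2fastq 2.20 and the mm39 genome. The study's methods count intronic reads. Each matrix listed 19059 features, and the annotation or probe set behind them is not settled here, so genes sharing sequence or overlapping another are uncertain. Each matrix was taken as 1 tumor, and p-values measure only the spread between these tumors. The matrices' names hold words on response that the labels lack, and no comparison by response was made.

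Members and gene lists were chosen with earlier results of these data known. A comparison nucleus joined the class whose marker list was highest over its library mean (at least 2-fold, 20 per 10000 UMIs and 3 genes). The 2-fold condition was not applied to the tumor list. Counts of pericyte nuclei were summed per tumor, filtered with filterByExpr, scaled by TMM and tested with edgeR 4.0.16 (glmQLFit, glmQLFTest, Benjamini-Hochberg), with DESeq2 1.42.0 as an alternative. The rule genes stayed in the fit and are described only. Abundance was compared by exact two-sided permutation over tumors. Scripts were tested on simulated counts. Shares of nuclei with a UMI were compared between classes after thinning to 1000 UMIs, and shares among pericyte nuclei alone are unthinned. Doublets were the nuclei with the highest Scrublet scores (scanpy 1.11.5), up to a preset 0.8% per 1000 nuclei, and marked nuclei stayed among the members. Genes were named when in the rule, when among the 5 smallest p-values per direction, when among the 6 most abundant of a list, or when higher in pericyte nuclei in every tumor at a mean of at least 50 CPM. All other genes were named after their values were seen, and 1 gene is not reported here. Alternatives changed the P minimum, the number of mural genes, the UMI minimum, doublets, mixed nuclei, scaling, filter, test and single tumors.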

Additional observations from a re-analysis of the deposited data

Results flagged for a closer look

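Dixon's test for 1 tumor far from the others of its group was applied to 58 groups of 4 tumors, and 5 were marked, where chance marks about 1 in 20. In the untreated group these were Abcc9 at 1123 CPM in tumor 4, Gjc1 at 685 CPM in tumor 4, Mcam at 447 CPM in tumor 2 and Csmd1 at 1811 CPM in tumor 1. In the Minnelide group it was Cnn1, at 1.59 CPM in tumor 3 and listed at 0 in the other 3 tumors. Abcc9, Mcam and Cnn1 helped choose the nuclei, so their values are a description only, and Cnn1 rests on 1 UMI, which this test marks by construction. Untreated tumor 4 has the shallowest library.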

How the results depend on the processing

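No paired analysis was possible because tumor numbers follow file order and pair no tumors across the groups. The difference in the share of nuclei changed sign with a P of at least 10 (2.69 points) and at least 500 UMIs (0.209), and ran from -0.409 (without Minnelide tumor 1) to 0.0917 (without Minnelide tumor 2) when 1 tumor was left out, being 0.036 without Minnelide tumor 3. It was -0.256 at a P of at least 40 (exact permutation test, p = 0.0571). The difference in the share of mural nuclei was -4.16 points once nuclei with another class list above the mural list were removed and -0.182 with members held to pericyte genes outside the rule, an alternative chosen after seeing the data, and 4.34 (without untreated tumor 1) to 15.7 with 1 tumor left out. The log2 ratio to endothelial-like nuclei was 0.88 at a P of at least 10 (exact permutation test, p = 0.0857), -0.47 at a P of at least 40, -0.000987 with at least 4 mural genes, -0.77 and -0.11 under those same removals, and -0.0904 (without Minnelide tumor 1) to 0.22 with 1 tumor left out. None of these values passed its test.

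Genes called for Minnelide numbered 0 in the main analysis, 1 after removal of nuclei with another class list above (Cytl1), 3 with DESeq2 (Ptchd4, Astn2 and Csmd1), and 0 to 0 with 1 tumor left out. Interaction calls against endothelial-like nuclei were 0 to 1 with 1 tumor left out (Olfm2, without untreated tumor 4). Against vascular smooth muscle they were 1 with DESeq2 (Csmd1), 7 without a filter on low counts, and 0 to 3 with 1 tumor left out, where 1 was called without untreated tumor 4, 3 without Minnelide tumor 1, 3 without Minnelide tumor 2 and 1 without Minnelide tumor 3. The causes were not tested, except that the removal of mixed nuclei left 3 to 36 members per tumor. Of 2582 refits of 141 named genes, 2430 stayed within 1 SE, and a sign differed in 225, none of them among the 27 of these genes with an unadjusted p under 0.05.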
